A study of Mus musculus with 20 samples.

Results

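The mature auditory periphery was compared with the mature auditory brainstem in the mouse on postnatal day 16 (P16), after hearing onset, by RNA sequencing of 3 libraries from the cochlea and 3 from the superior olivary complex (SOC). The genes described are those with a count above 0 in at least 1 P16 library of each organ, 16065 of the 22734 genes of the deposited table. Of these, 14527 had counts in all 6 libraries, 14254 were protein coding and 88 had no symbol and are not named. A further 5745 genes had counts at P16 in the cochlea only, 758 in the SOC only and 166 in neither organ. They were not members and are described by bounds where an organ cannot be described without them. The cochlear libraries came from the sensory epithelium of C57BL/6JOlaHsd mice, the SOC libraries from the SOC region cut out of frozen brain of C57Bl6/J mice. All animals were untreated wild types of both sexes, and each library was a pool of several animals. Organ therefore went together with substrain, laboratory, RNA extraction kit, library kit (for the SOC a TruSeq Stranded Total RNA kit, for the cochlea NEBNext Ultra II Directional) and sequencer, which cannot be told apart from it. The p-values given measure the spread between pools.

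The cochlea turns sound into electrical signals. Inner hair cells release glutamate onto the spiral ganglion neurons, outer hair cells amplify the motion, supporting cells and the tectorial membrane hold the mechanics in place, and the stria vascularis supplies the potassium-rich endolymph and its voltage. The SOC is a set of brainstem nuclei that compare the signals of both ears. Its principal neurons fire fast and precisely and are inhibited by glycine, a transmitter whose inhibitory action needs the chloride exporter KCC2 (Slc12a5). The auditory axons are myelinated by Schwann cells in the periphery and by oligodendrocytes in the brainstem, and efferent olivocochlear neurons of the SOC project back to the hair cells and use acetylcholine.

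The P16 libraries held 24686900 to 33109083 counts. Levels are given as CPM, the counts of a gene scaled to a common library size after TMM normalisation, and differences as log2 of the cochlear level over the SOC level, with ± the standard error (SE) of the fit. Adjusted p-values are those of edgeR's quasi-likelihood test over all genes. Where no read was counted, a level of up to 0.0885 to 0.151 CPM remained possible. Where a gene had been left out of one of the 4 separately filtered tables that were joined into the deposited table, a 0 allowed up to 20 counts, 0.59 to 1.00 CPM. This was so for 1398 members in SOC replicate 3, whose counts formed a table of their own. Replicate 3 of the SOC also stood apart in its scaling factor (0.948 against 0.800 and 0.807) and replicate 3 of the cochlea in its blood cell transcripts, given below. Nnt, which lacks several exons in C57BL/6J, was at 54.0, 52.3 and 60.6 CPM in the cochlea and 19.2, 18.1 and 20.6 CPM in the SOC (log2 1.53 ± 0.10, adjusted p 5.51e-10), although 47.4% of its exons overlap another gene of the same strand. Substrain and organ cannot be told apart in this difference. Of 3 genes listed for substrain deletions, the other 2 had counts in the SOC only. With Nnt the list summed to 90.2, 99.0 and 86.1 CPM in the SOC. In the other 2 genes, too, substrain and organ cannot be told apart. Of the other genes named below, Rmrp and Ifitm5 overlapped a same-strand gene over more than 20% of their exons, and Epyc, Rmrp, Ceacam16, Nefl, Slc32a1, Chrna10 and Hoxb2 an opposite-strand gene.

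A member was called different when the Benjamini-Hochberg adjusted p of edgeR's quasi-likelihood test was under 0.01, the fold change was over 2.5 and the 3 libraries of an organ all lay above the 3 of the other. By this measure 3587 members were higher in the cochlea and 2813 in the SOC. As the background for the lists below, this was 22.3% and 17.5% of the members. Over all genes tested the shares were 40.3% and 13.9%, because 5584 genes with counts in the cochlea only passed the same criteria, most of which were not protein coding (1439 of the 5745 genes were). Among the members higher in the cochlea 79.1% were protein coding, and among those higher in the SOC 94.0%. The median size of a called difference was 2.59 on the log2 scale for the cochlea and 2.02 for the SOC. It was over 10-fold for 1203 members higher in the cochlea and for 510 higher in the SOC, and over 100-fold for 145 and 50. The median log2 difference over all members was -0.00011, and 0.69 over all genes. With zeros of left-out genes at 20 counts these medians were -0.10 and -0.03. The organs did not overlap in 76.6% of the members, of which 5908 were not called. This share is the background where libraries are said below not to overlap. It was not computed over all genes. Without replicate 3 of either organ 3628 members were higher in the cochlea and 2930 in the SOC. Scaled on genes with counts in every library, the median over all genes moved by 0.14, and 3938 and 2433 members were called.

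**Figure D1:**
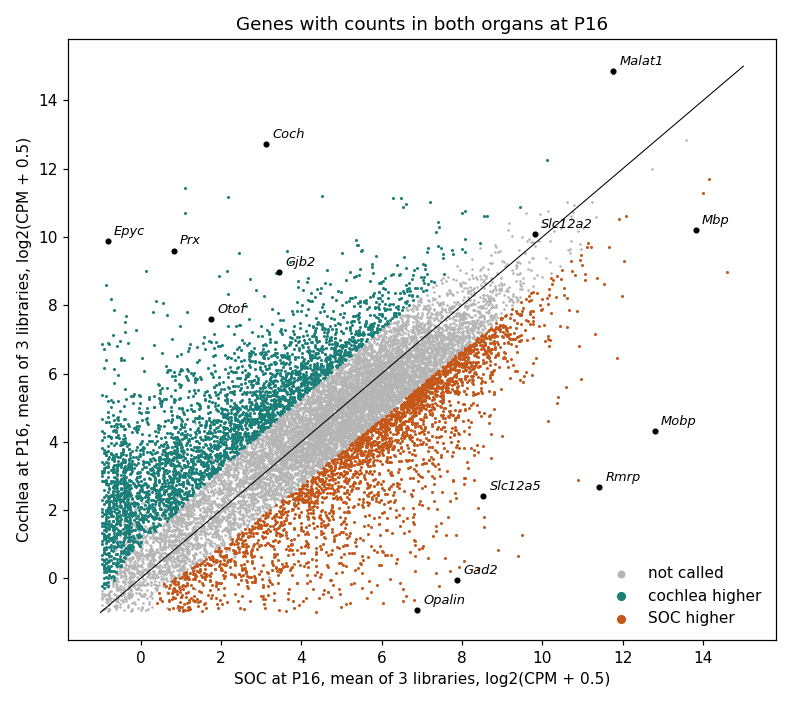
Mean level of each gene with counts in both organs at P16, as log2(CPM + 0.5) over 3 libraries, in the SOC (x axis) and the cochlea (y axis). The line marks equal levels, 3587 members were called higher in the cochlea and 2813 in the SOC. Genes named in the text are marked in black.

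Among the 10 members with the largest difference in favour of the cochlea, at a mean of at least 50 CPM, were Epyc, Otog, Cldn9, Otor, Ush1c, Cldn8, Prom2, Slc26a4 and Tmem221. Most are genes of the inner ear's matrix and epithelia. Epyc encodes a small proteoglycan (ENSMUSG00000019936, chromosome 10, 97644068 to 97682454, mm10 with positions from GENCODE M21) and was at 979, 964 and 857 CPM in the cochlea and 0, 0.201 and 0 CPM in the SOC, with 40.6% of its exons overlapped by an opposite-strand gene. Otog encodes otogelin of the acellular membranes (ENSMUSG00000009487, chromosome 7, 46240987 to 46311434) and was at 295, 423 and 445 CPM in the cochlea and 0.0995, 0.0502 and 0 CPM in the SOC. Slc26a4 encodes the anion exchanger pendrin (ENSMUSG00000020651, chromosome 12, 31519827 to 31559969) and was at 96.4, 156 and 104 CPM in the cochlea and 0.0995, 0.100 and 0 CPM in the SOC. In each case the cochlear libraries lay far above the SOC libraries, which held a few reads at most. With so few reads a fitted fold is uncertain. Otog had 3 counts in the SOC in all, a ratio of 8612 (95% counting interval 2947 to 41761), Ush1c 2 counts and 3484 (95% counting interval 964 to 28766), and Cldn9 1 count and 7746 (95% counting interval 1390.2 to 305932). The genes named here were also left out of the table of SOC replicate 3, and with such zeros set to 20 counts their log2 differences were 7.69 (Cldn8) to 11.28 (Epyc).

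In favour of the SOC the 10 members with the largest difference included Opalin, Zcchc12, Tph2, Ermn, Gabra3, Gad2, Grm5, AW551984 and Rmrp. Opalin and Ermn are oligodendrocyte genes, Gad2 makes GABA, Gabra3 encodes a subunit of the GABA-A receptor and Grm5 a metabotropic glutamate receptor. Opalin (ENSMUSG00000050121, chromosome 19, 41061710 to 41077113) was at 0, 0.0295 and 0.0376 CPM in the cochlea and 115, 132 and 104 CPM in the SOC. It had 2 counts in the cochlea in all, so that the SOC level was 5178 (95% counting interval 1433 to 42755) times higher. Gad2 (ENSMUSG00000026787, chromosome 2, 22622205 to 22693874) was at 0.357, 0.531 and 0.526 CPM in the cochlea and 251, 273 and 183 CPM in the SOC (log2 -8.95 ± 0.30, adjusted p 2.1e-13). Tph2, the enzyme of serotonin synthesis in brainstem neurons (ENSMUSG00000006764, chromosome 10, 115078641 to 115185022), was at 0.107, 0.207 and 0.0751 CPM in the cochlea and 87.6, 122 and 67.6 CPM in the SOC (log2 -9.37 ± 0.37, adjusted p 9.62e-13). Rmrp, a short non-coding RNA of ribosomal RNA processing (ENSMUSG00000088088, chromosome 4, 43492788 to 43493058), was at 2.10, 2.33 and 13.3 CPM in the cochlea and 2971, 3026 and 2166 CPM in the SOC (log2 -8.86 ± 0.87, adjusted p 6.39e-08), and 100% of its exons are overlapped by a gene of the same strand and 45.8% by an opposite-strand gene, so that its counts are uncertain.

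By level per kb of exon, the called members at the top of the cochlea were the non-coding RNAs Gm23935, Gm26917 and Malat1, followed by Coch and Fbxo2. Malat1 was at 33107, 35072 and 20828 CPM in the cochlea and 3470.5, 3411 and 3548 CPM in the SOC, a mean of 4249 against 498 CPM per kb, and Gm26917 at 22658, 34212 and 29224 CPM in the cochlea and 2909, 2561 and 4982 CPM in the SOC. The kits for RNA extraction and ribosomal RNA depletion differed between the organs, and their part in these values was not tested. Gm23935, a short RNA, was at 169, 480.3 and 1613 CPM in the cochlea and 139, 148 and 133 CPM in the SOC (log2 2.43 ± 0.76, adjusted p 0.00691). Its cochlear level rested mostly on replicate 3, without which the log2 difference was 1.31 and not called. The call was also lost without any 1 of the SOC libraries. Coch encodes cochlin, an abundant protein of the cochlear extracellular matrix (ENSMUSG00000020953, chromosome 12, 51593341 to 51605771). It was at 5899, 6458 and 7698 CPM in the cochlea and 8.16, 8.68 and 7.79 CPM in the SOC (log2 9.67 ± 0.30, adjusted p 9.62e-14), a mean of 2229.8 against 2.74 CPM per kb. Fbxo2, an F-box protein of supporting cells, was at 1954, 2384 and 1311 CPM in the cochlea and 94.0, 88.6 and 95.5 CPM in the SOC (log2 4.34 ± 0.24, adjusted p 5.42e-11).

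Among those at the top of the SOC were mt-Co1, mt-Rnr2, Rmrp and Mbp. The mitochondrial ribosomal RNA mt-Rnr2 was at 1659, 2326 and 3461 CPM in the cochlea and 22615, 20164 and 6590 CPM in the SOC. Its SOC level was lowest in replicate 3. The part of the kits for RNA extraction and ribosomal RNA depletion in these SOC levels was not tested either. The mitochondrial mt-Co1 was at 3575, 2629 and 3844 CPM in the cochlea and 21858, 20213 and 12565 CPM in the SOC (log2 -2.44 ± 0.27, adjusted p 2.26e-07). Mbp encodes a main protein of central myelin and is described with the myelin genes below.

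Levels were alike for 1481 members, 9.22% of all, in the sense that the 95% interval of the difference lay within 1.5-fold. The 5 with the highest level per kb were Psap, Eef2, Ldhb, Itm2b and Hsp90ab1, genes of lysosomes, translation, energy metabolism and protein folding. Psap, for example, was at 1529.9, 1805 and 1349.7 CPM in the cochlea and 1687, 1704 and 1659 CPM in the SOC (95% interval of the log2 difference -0.41 to 0.20) and Itm2b at 974, 969 and 908 CPM in the cochlea and 1118, 964 and 789 CPM in the SOC (-0.27 to 0.25). Of 15 genes often used as references, 5 were called higher in the SOC and 1 in the cochlea, with a median of -0.73. Ppia, for example, was at 139 against 707 CPM (-2.35). Differences of this size also occurred in genes that no cell type marks, and the part of the kits in them was not tested.

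**Figure D2:**
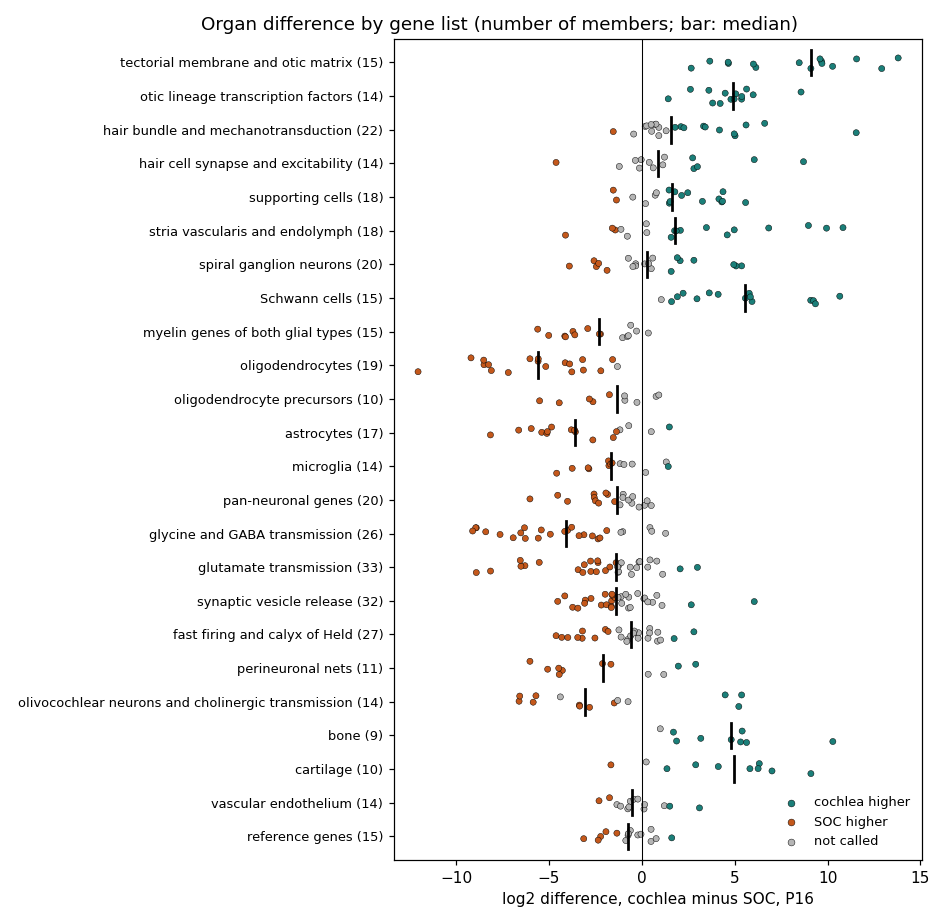
Log2 difference between cochlea and SOC at P16 for the members of 24 gene lists (x axis). Each point is a gene, coloured by its call, the bar is the list's median and the number of members stands behind the name. The median was 9.10 for tectorial membrane and otic matrix and -5.58 for oligodendrocytes.

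Most hair cell genes were higher in the cochlea or had no counts in the SOC. In such bulk tissue fewer cells of a type and less RNA per cell cannot be told apart. Of the 22 members among genes of the hair bundle and of mechanotransduction, 11 were higher in the cochlea and 1 in the SOC (median 1.55). Another 13 listed genes had no counts in the SOC at P16. Among these were the transduction channel gene Tmc1 at 16.9, 22.9 and 17.2 CPM, at least 20.7-fold above the level that a 0 allowed in the SOC, Strc, which links stereocilia to each other and to the tectorial membrane, at 27.5, 55.1 and 52.6 CPM (at least 49.2-fold), and Loxhd1 at 43.6, 68.4 and 45.8 CPM (at least 57.4-fold). Ptprq, a phosphatase of the stereocilia shaft, was at 57.3, 61.0 and 65.5 CPM in the cochlea and 2.04, 2.01 and 1.81 CPM in the SOC (log2 4.97 ± 0.23, adjusted p 4.59e-12). Myo15, the motor that carries actin regulators to stereocilia tips, was at 30.3, 49.8 and 62.8 CPM in the cochlea and 0.448, 1.00 and 1.39 CPM in the SOC (log2 5.61 ± 0.39, adjusted p 7.71e-10). The cochlear libraries lay above every SOC library in both, and also in Myo7a. This motor of the tip-link insertion was at 65.8, 95.4 and 98.4 CPM in the cochlea and 14.6, 16.6 and 22.7 CPM in the SOC (log2 2.27 ± 0.27, adjusted p 5.93e-07). Other bundle genes were also expressed in the brainstem and were not called. The motor Myo6 was at 442, 446 and 386 CPM in the cochlea and 406, 388 and 332 CPM in the SOC (0.18, 95% interval -0.12 to 0.48). The calcium pump Atp2b2 was at 350.4, 377 and 443 CPM in the cochlea and 457, 559 and 574 CPM in the SOC (-0.44, -0.98 to 0.09). Cdh23 and Pcdh15, which form the tip link, were at 53.6 against 12.5 CPM (2.11) and 57.8 against 30.7 CPM (0.91). Only Cdh23 of the pair was called, and this call was lost when GC content and length were adjusted for. The actin regulator Eps8 was higher in the SOC, at 31.4, 26.6 and 26.9 CPM in the cochlea and 83.0, 86.0 and 77.9 CPM in the SOC (log2 -1.54 ± 0.11, adjusted p 1.47e-09).

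Of 14 members of the hair cell synapse and excitability list, 5 were higher in the cochlea and 1, Calb1, in the SOC. Otof, the calcium sensor of the ribbon synapse (ENSMUSG00000062372, chromosome 5, 30367062 to 30461932), was at 156, 211 and 208 CPM in the cochlea and 2.54, 3.31 and 2.82 CPM in the SOC (log2 6.05 ± 0.32, adjusted p 2.28e-11). P2rx2, an ATP-gated channel, was at 93.5, 108 and 150.2 CPM in the cochlea and 0, 0.904 and 0 CPM in the SOC (log2 8.70 ± 0.59, adjusted p 5.54e-10). Cacna1d, the L-type calcium channel that triggers release in inner hair cells, was at 139, 132 and 133 CPM in the cochlea and 19.1, 19.2 and 22.3 CPM in the SOC (log2 2.73 ± 0.15, adjusted p 3.61e-11). In these genes no library of an organ overlapped the other's. Slc17a8, their vesicular glutamate transporter VGLUT3, was at 56.1, 65.2 and 45.6 CPM in the cochlea and 6.52, 9.59 and 4.97 CPM in the SOC (log2 2.99 ± 0.25, adjusted p 1.07e-08). The outer hair cell genes Slc26a5 (prestin, the motor protein) and Ocm (oncomodulin, a calcium buffer) had no counts in the SOC. They were at 83.7, 107 and 74.3 CPM (at least 96.4-fold above the SOC floor) and 55.4, 90.8 and 79.2 CPM (at least 82.0-fold), and the subunits of the efferent acetylcholine receptor, Chrna9 and Chrna10, at 4.99, 6.43 and 4.81 CPM and 8.13, 10.1 and 9.99 CPM. The calcium buffers Calb2 and Calb1 differed between the organs in opposite directions. Calb2 (calretinin) was at 1018, 1449.5 and 953 CPM in the cochlea and 169, 187 and 134 CPM in the SOC (log2 2.80 ± 0.19, adjusted p 5.56e-10). Calb1 (calbindin) was at 7.31, 6.46 and 5.26 CPM in the cochlea and 200.1, 141 and 128 CPM in the SOC (log2 -4.62 ± 0.31, adjusted p 5.99e-10). Pvalb (parvalbumin) was at 181, 269.6 and 152 CPM in the cochlea and 299, 253 and 216 CPM in the SOC (-0.35, not called).

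Transcription factors keep the identity of a cell lineage. All 14 members of the otic lineage list were higher in the cochlea, with a median of 4.88 (3.95 with the zeros of left-out genes at 20 counts, where the median of all members was -0.10). Gata3, a regulator of hair cells and spiral ganglion neurons, was at 159, 169 and 170.3 CPM in the cochlea and 4.18, 4.67 and 3.24 CPM in the SOC (log2 5.37 ± 0.29, adjusted p 3.77e-11). Lmx1a was at 49.7, 41.9 and 45.2 CPM in the cochlea and 0.647, 1.00 and 1.05 CPM in the SOC (log2 5.64 ± 0.21, adjusted p 3.74e-13). The SOC libraries held a few CPM of these factors at most. Pou3f4, a factor of the otic mesenchyme, was at 82.0, 73.3 and 98.9 CPM in the cochlea and 6.57, 6.38 and 5.19 CPM in the SOC (log2 3.81 ± 0.14, adjusted p 4.71e-13). Pax8 was the exception outside the members, with no counts in the cochlea and 1.49, 2.21 and 2.48 CPM in the SOC. Of 11 hair cell factors 6 were higher in the cochlea and 1, Insm1, in the SOC (-2.40). Pou4f3 was at 23.3, 28.03 and 27.3 CPM in the cochlea and 0, 0.201 and 0 CPM in the SOC (log2 8.65 ± 0.43, adjusted p 1.13e-11). Tbx2, an inner hair cell factor, was at 116, 127 and 155 CPM in the cochlea and 1.49, 1.46 and 4.48 CPM in the SOC (log2 5.70 ± 0.48, adjusted p 8.72e-09). Atoh1, which starts hair cell development, was at 0.0349 ± 0.0378 CPM and had no counts in the SOC. Of the 13 Hox genes in the table, which pattern the hindbrain, 11 had counts in the SOC only, up to 3.83 ± 0.885 CPM for Hoxb2, and Hoxa2 was at 0.285, 0.325 and 0.526 CPM in the cochlea and 2.93, 3.61 and 2.90 CPM in the SOC (log2 -3.05 ± 0.28, adjusted p 2.27e-08). Among 14 members of the hindbrain factor list 4 were higher in the SOC, with Meis2 at 10.6 against 144 CPM (-3.77) and Zic1 at 4.99 against 59.0 CPM (-3.57), and 5 in the cochlea, with Nr2f1 at 136 against 19.6 CPM (2.79) and Nkx6-1 at 24.0 against 2.62 CPM (3.18).

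Of the 44 lists, the extracellular matrix of the cochlea had the highest median difference. All 15 members of the tectorial membrane and otic matrix list were higher in the cochlea, with a median of 9.10 (7.24 with left-out zeros at 20 counts). Summed over the list the cochlear libraries held 16722, 16509 and 19821 CPM and the SOC libraries 145, 155 and 329 CPM. Tectb, beta-tectorin, was at 77.6, 82.7 and 88.8 CPM in the cochlea and 0.497, 0.251 and 0 CPM in the SOC (log2 8.47 ± 0.42, adjusted p 1.2e-11). Tecta, alpha-tectorin, was at 5.28, 4.75 and 7.77 CPM in the cochlea and 0.398, 1.10 and 0 CPM in the SOC (log2 3.66 ± 0.53, adjusted p 5.53e-06). Both tectorins were thus lower in every SOC library than in any cochlear library. Otoa, which attaches the tectorial membrane to the epithelium, was at 479.8, 537 and 511 CPM in the cochlea and 0.398, 0.552 and 0.828 CPM in the SOC (log2 9.70 ± 0.26, adjusted p 2.26e-14). Ceacam16 of the tectorial membrane's striated sheet matrix and Otos, otospiralin, had no counts in the SOC and were at 803, 1054 and 1809 CPM (at least 1332-fold above the floor) and 347, 480.3 and 1449 CPM (at least 828-fold). The level of both was highest in cochlea replicate 3. Col2a1, a collagen of both the tectorial membrane and cartilage, was at 2559.8, 1948 and 2347 CPM in the cochlea and 1.39, 1.86 and 8.88 CPM in the SOC (log2 9.10 ± 0.79, adjusted p 1.46e-08). Its SOC level was highest in replicate 3, where the summed level of the cartilage list, given below, was lowest.

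Of 18 supporting cell members 12 were higher in the cochlea and 2 in the SOC (median 1.65). Gjb2, connexin 26 of the gap junctions that recycle potassium, was at 490.0, 439 and 574 CPM in the cochlea and 10.4, 6.27 and 14.4 CPM in the SOC (log2 5.59 ± 0.27, adjusted p 7.55e-12). Its partner Gjb6, connexin 30, which astrocytes also express, was at 392, 402 and 386 CPM in the cochlea and 161, 145 and 117 CPM in the SOC (log2 1.48 ± 0.16, adjusted p 1.75e-07). S100a1 was at 836, 1161 and 593 CPM in the cochlea and 38.9, 42.1 and 44.2 CPM in the SOC (log2 4.37 ± 0.26, adjusted p 1.16e-10). The SOX factors of supporting cells differed from each other. Sox9 was at 106, 107 and 149.7 CPM in the cochlea and 12.9, 14.1 and 10.8 CPM in the SOC (log2 3.26 ± 0.20, adjusted p 1.38e-10), while Sox2 was at 19.5, 19.9 and 18.0 CPM in the cochlea and 26.4, 24.3 and 29.7 CPM in the SOC (-0.49, not called). The glutamate transporter Slc1a3, which is shared with astrocytes, was higher in the SOC, at 166, 174 and 156 CPM in the cochlea and 498, 481 and 461 CPM in the SOC (log2 -1.54 ± 0.12, adjusted p 2.26e-09).

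The stria vascularis list holds transporters and channels of the endolymph as well as other genes of the stria's cells. Of 18 members of the stria vascularis and endolymph list 11 were higher in the cochlea and 3 in the SOC. Lrp2, a large endocytic receptor of epithelia, was at 2055, 1575 and 1399.9 CPM in the cochlea and 1.24, 1.00 and 2.71 CPM in the SOC (log2 9.94 ± 0.33, adjusted p 1.79e-13). Dct, a melanin enzyme that marks the intermediate cells of the stria, was at 343, 70.6 and 90.3 CPM in the cochlea and 1.34, 1.86 and 1.24 CPM in the SOC (log2 6.83 ± 0.56, adjusted p 6.56e-09), and varied more than 2-fold between cochlear libraries. Kcnq1, the potassium channel that secretes into the endolymph, was at 45.2, 17.5 and 26.2 CPM in the cochlea and 1.24, 0.653 and 1.69 CPM in the SOC (log2 4.60 ± 0.40, adjusted p 1.46e-08), and its subunit Kcne1 had no counts in the SOC and 60.4, 16.4 and 26.9 CPM in the cochlea (at least 37.7-fold). Both genes were highest in cochlea replicate 1. Atp1b2, a beta subunit of the sodium-potassium pump, was at 370.4, 212 and 314 CPM in the cochlea and 86.5, 89.8 and 88.1 CPM in the SOC (log2 1.76 ± 0.34, adjusted p 0.000127), higher in the cochlea. Inwardly rectifying channels return potassium and set the voltage of the endolymph and of glia. Of these, Kcnj16 was called higher in the cochlea, at 255, 276 and 245 CPM in the cochlea and 82.5, 76.4 and 56.4 CPM in the SOC (log2 1.85 ± 0.19, adjusted p 1.28e-07). Others of the Kcnj family lay the other way, among them Kcnj3 (log2 -3.93) and Kcnj9 (log2 -3.94). Kcnj10 was at 213, 172 and 215 CPM in the cochlea and 366, 403 and 260.2 CPM in the SOC (-0.78, not called).

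The chloride level inside a neuron decides whether glycine and GABA inhibit it. Slc12a5, the exporter KCC2 (ENSMUSG00000017740, chromosome 2, 164960802 to 164999731), was at 5.92, 3.57 and 4.84 CPM in the cochlea and 304, 347 and 458 CPM in the SOC (log2 -6.28 ± 0.39, adjusted p 2.15e-10). Slc12a2, the importer NKCC1, which also feeds the stria, was at 1719.9, 882 and 656 CPM in the cochlea and 1032, 994 and 678 CPM in the SOC (0.27, 95% interval -0.33 to 0.87). The organs overlapped in the importer and lay apart in the exporter. The potassium-chloride cotransporter Slc12a7 (KCC4) was at 416, 542 and 525 CPM in the cochlea and 9.10, 8.13 and 12.04 CPM in the SOC (log2 5.66 ± 0.24, adjusted p 1.52e-12). Over the 27 members of this list 6 were higher in the cochlea and 7 in the SOC. Among carbonic anhydrases, which supply bicarbonate, Car3 was at 216, 247 and 340.2 CPM in the cochlea and 0.696, 0.703 and 1.505 CPM in the SOC (log2 8.06 ± 0.33, adjusted p 1.29e-12). Car2 was at 54.3, 61.9 and 154 CPM in the cochlea and 371, 333 and 265 CPM in the SOC (log2 -1.85 ± 0.27, adjusted p 5.83e-06), in opposite directions.

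Claudins seal epithelia. Of the 11 members of this family 5 were higher in the cochlea, with Cldn19 the highest of them in the SOC, and 4 in the SOC, and 8 more had counts at P16 in the cochlea only. Cldn9, whose loss causes deafness, was at 88.5, 137 and 123 CPM in the cochlea, and Cldn19 of Schwann cells at 120.2, 114 and 134 CPM in the cochlea and 0.0995, 0.502 and 0 CPM in the SOC (log2 9.35 ± 0.63, adjusted p 5.27e-10). Cldn11, shared by the stria's basal cells and oligodendrocytes, was higher in the SOC, at 119, 99.6 and 114 CPM in the cochlea and 2177, 1932 and 1638 CPM in the SOC (log2 -4.11 ± 0.22, adjusted p 2.18e-11), as was Cldn5 of the blood-brain barrier at 21.4, 21.3 and 23.9 CPM in the cochlea and 64.6, 56.3 and 102 CPM in the SOC (log2 -1.74 ± 0.25, adjusted p 5.67e-06). Among 10 connexin members Gjb2 and Gjb6 were higher in the cochlea. Higher in the SOC were 4, Gjb1 and Gja5 among them. Gja1 of astrocytes was at 33.1, 23.3 and 29.4 CPM in the cochlea and 408, 385 and 234 CPM in the SOC (log2 -3.58 ± 0.28, adjusted p 3.15e-09).

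Myelin divided by the cell that makes it. Of 15 Schwann cell members 14 were higher in the cochlea, with a median of 5.58, and of 19 oligodendrocyte members 18 were higher in the SOC, with a median of -5.58. Prx, periaxin of Schwann cells (ENSMUSG00000053198, chromosome 7, 27499324 to 27520214), was at 805, 876 and 647 CPM in the cochlea and 1.94, 0.653 and 1.24 CPM in the SOC (log2 9.24 ± 0.41, adjusted p 3.03e-12). Egr2, the factor that drives Schwann cell myelination, was at 29.8, 36.2 and 41.4 CPM in the cochlea and 0.0995, 0.100 and 0 CPM in the SOC (log2 9.09 ± 0.46, adjusted p 1.29e-11). The SOC held few reads of these genes and more of Pmp22, a small protein of compact myelin. Pmp22 was at 709, 658 and 965 CPM in the cochlea and 53.4, 44.5 and 37.4 CPM in the SOC (log2 4.11 ± 0.22, adjusted p 2.28e-11). In the other direction, Mog (ENSMUSG00000076439, chromosome 17, 37010743 to 37023398) was at 1.57, 3.86 and 0.338 CPM in the cochlea and 779.7, 739 and 657 CPM in the SOC (log2 -8.52 ± 0.88, adjusted p 1.14e-07). Mog is an adhesion protein of the outer sheath, and Mobp a basic protein of central myelin. Mobp was at 15.2, 40.5 and 2.93 CPM in the cochlea and 8312, 7507 and 5489.7 CPM in the SOC (log2 -8.50 ± 1.59, adjusted p 0.000214) and the transcription factor Myrf at 4.71, 7.29 and 6.197 CPM in the cochlea and 48.0, 53.4 and 64.9 CPM in the SOC (log2 -3.19 ± 0.35, adjusted p 2.74e-07). Olig2, the factor of the oligodendrocyte lineage, had no counts in the cochlea and was at 51.1, 49.9 and 86.9 CPM in the SOC (at least 91.5-fold). For each of these genes no cochlear library overlapped an SOC library.

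Genes used by both glial types were higher in the SOC or not called. Of 15 members 9 were higher in the SOC and 0 in the cochlea (median -2.29). Mbp was at 1159.9, 1369 and 1030.0 CPM in the cochlea and 14676, 15414 and 13350.0 CPM in the SOC (log2 -3.61 ± 0.28, adjusted p 3.06e-09). Mag, an adhesion protein of the inner myelin layer, was at 49.3, 53.3 and 40.6 CPM in the cochlea and 1266, 1374 and 1994 CPM in the SOC (log2 -5.02 ± 0.33, adjusted p 4.78e-10). The SOC libraries were above all cochlear libraries in both genes. Summed over the list, the SOC held 58628, 55440.0 and 47007 CPM and the cochlea 3622, 4052 and 3199 CPM. The sums did not overlap. Sox10, the factor of both lineages, was at 146, 154 and 251 CPM in the cochlea and 47.1, 50.3 and 84.3 CPM in the SOC (log2 1.60 ± 0.40, adjusted p 0.00129), and this call was lost when GC content and length were adjusted for. Oligodendrocyte genes were not absent from the cochlea. The list summed to 234, 268 and 213 CPM there, Mobp was highest in replicate 2 and lowest in replicate 3, and so were Mog and the astrocyte gene Gfap, whereas Myrf was lowest in replicate 1. Oligodendrocyte precursor genes were higher in the SOC for 5 of 10 members, with Gpr17 at 7.60, 7.43 and 5.63 CPM in the cochlea and 261, 261 and 419.8 CPM in the SOC (log2 -5.51 ± 0.36, adjusted p 3.65e-10).

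**Figure D3:**
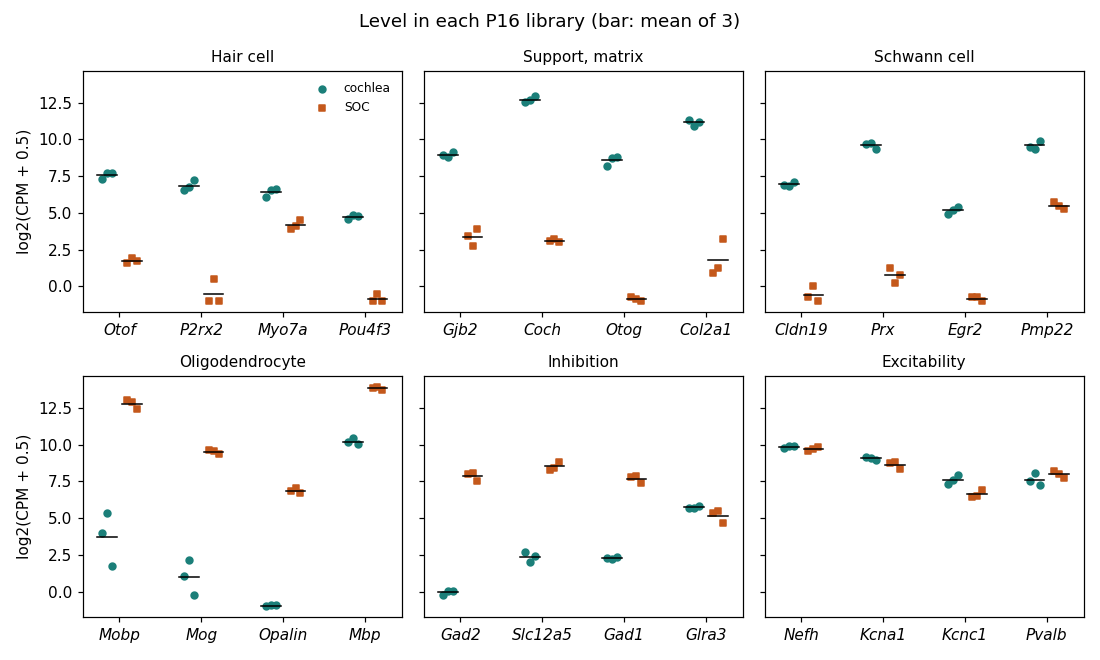
Level of 24 members in each P16 library as log2(CPM + 0.5), with 3 points per organ and a bar at their mean, grouped by cell type or role. The organs lie apart for the hair cell, matrix, Schwann cell and oligodendrocyte genes and lie close or overlap for Glra3, Nefh, Kcna1 and Pvalb.

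The windows from 250 bases before to 50 after the start of transcription are shown for 4 genes that carry the division, 1 each for otic matrix, Schwann cells, oligodendrocytes and inhibitory neurons (RefSeq, GRCm38.p6, the build of the counts, 5′ to 3′ on the gene's strand). Capitals mark matches on either strand to AGATAA, the core of GATA factor sites, ACAAAG of SOX factors, CAGCTG, an E-box, and TATAAA. None of these overlapped another in the windows shown. Of 27018 RefSeq genes with a window of this length, 11.4%, 18.8%, 16.1% and 14.1% held them.
Coch, chr12:51593091-51593390, plus strand: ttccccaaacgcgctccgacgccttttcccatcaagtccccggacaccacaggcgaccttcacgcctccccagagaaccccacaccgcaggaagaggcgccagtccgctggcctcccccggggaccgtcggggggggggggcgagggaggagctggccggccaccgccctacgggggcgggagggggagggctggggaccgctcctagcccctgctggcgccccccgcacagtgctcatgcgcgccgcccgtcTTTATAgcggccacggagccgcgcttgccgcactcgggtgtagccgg
Prx, chr7:27499074-27499373, plus strand: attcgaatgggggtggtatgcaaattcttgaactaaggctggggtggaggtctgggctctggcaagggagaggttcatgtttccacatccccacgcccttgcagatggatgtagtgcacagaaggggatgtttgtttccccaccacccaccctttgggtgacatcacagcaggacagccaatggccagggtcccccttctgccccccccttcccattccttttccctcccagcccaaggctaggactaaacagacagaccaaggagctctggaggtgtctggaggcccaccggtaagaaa
Opalin, chr19:41077064-41077363, minus strand: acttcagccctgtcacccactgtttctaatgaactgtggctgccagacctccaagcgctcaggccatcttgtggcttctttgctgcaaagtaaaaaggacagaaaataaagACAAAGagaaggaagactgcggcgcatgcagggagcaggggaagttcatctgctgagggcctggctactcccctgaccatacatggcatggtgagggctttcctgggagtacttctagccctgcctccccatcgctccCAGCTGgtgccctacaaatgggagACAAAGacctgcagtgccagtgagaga
Gad2, chr2:22622077-22622376, plus strand: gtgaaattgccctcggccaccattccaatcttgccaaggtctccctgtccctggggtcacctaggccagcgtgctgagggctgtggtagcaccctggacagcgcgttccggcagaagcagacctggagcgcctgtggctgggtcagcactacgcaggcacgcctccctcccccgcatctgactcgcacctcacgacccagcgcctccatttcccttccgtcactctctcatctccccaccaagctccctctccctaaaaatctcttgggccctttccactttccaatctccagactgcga
The Coch window held 1 match, to TATAAA, and 32 CG pairs at 73.7% GC. The Prx window held 3 CG pairs and the Opalin window 4, with 2 matches to ACAAAG and 1 to CAGCTG in the latter. The Gad2 window, which starts transcription 122 bases from the annotated GENCODE start, held 14 CG pairs and no match. A window was found for 71.0% of the members with a symbol, too few to compare their classes.

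Astrocyte genes were higher in the SOC for 13 of 17 members and in the cochlea for 1, Gjb6 (median -3.62). Slc1a2, the main glutamate transporter of the brain, was at 88.5, 94.3 and 81.0 CPM in the cochlea and 3902, 4225 and 2944 CPM in the SOC (log2 -5.39 ± 0.26, adjusted p 7.04e-12). Aqp4, the water channel of astrocyte endfeet, was at 38.5, 46.3 and 34.1 CPM in the cochlea and 1507, 1343 and 1184 CPM in the SOC (log2 -5.08 ± 0.26, adjusted p 1.73e-11). Gfap was at 11.2, 34.0 and 6.91 CPM in the cochlea and 456, 375 and 691 CPM in the SOC (log2 -4.86 ± 0.47, adjusted p 5.12e-08). Gfap, the intermediate filament of astrocytes, was highest in cochlea replicate 2, like Mobp and Mog, but far under the SOC in all cochlear libraries. Slc6a11, a GABA transporter, was at 1.25, 0.826 and 0.714 CPM in the cochlea and 224, 253 and 318 CPM in the SOC (log2 -8.15 ± 0.41, adjusted p 1.5e-11). Ntsr2 had no counts in the cochlea and 100.1, 95.4 and 111 CPM in the SOC. S100b and Glul, which cochlear glia and supporting cells also express, were not called (0.51 and -0.70). Microglia genes were higher in the SOC for 8 of 14 members and in the cochlea for 1, with P2ry12 at 2.57, 2.01 and 2.97 CPM in the cochlea and 70.3, 67.0 and 43.8 CPM in the SOC (log2 -4.59 ± 0.33, adjusted p 1.28e-09).

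Neuronal genes were present in both organs. Of 20 pan-neuronal members 10 were higher in the SOC and 0 in the cochlea (median -1.32). The large neurofilament subunits of thick axons were not called, with Nefh at 871, 961 and 955 CPM in the cochlea and 757, 838 and 918 CPM in the SOC (0.15, 95% interval -0.49 to 0.79). Nefm was at 608, 655 and 561 CPM in the cochlea and 360.3, 464 and 459 CPM in the SOC (0.51, -0.34 to 1.35), whereas the light subunit Nefl was at 473, 512 and 337 CPM in the cochlea and 2689, 2623 and 2571 CPM in the SOC (log2 -2.58 ± 0.24, adjusted p 2.66e-08). Gap43, a protein of growing axons and synapses, was at 2.57, 1.65 and 0.864 CPM in the cochlea and 98.9, 102 and 132 CPM in the SOC (log2 -6.03 ± 0.30, adjusted p 1.06e-11). Among 20 spiral ganglion members 7 were higher in the cochlea and 5 in the SOC. Pou4f1, a subtype factor of these neurons, was at 9.81, 10.4 and 13.3 CPM in the cochlea and 0.547, 0.602 and 0 CPM in the SOC (log2 4.95 ± 0.43, adjusted p 1.5e-08). Runx1 was at 53.5, 56.4 and 81.0 CPM in the cochlea and 2.54, 1.66 and 1.505 CPM in the SOC (log2 5.07 ± 0.31, adjusted p 1.57e-10). Its cochlear level was highest in replicate 3, as were the neutrophil and erythroid sums given below. In the other direction, Prph had the lowest log2 difference of the list (-3.90).

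Of the neuronal lists, glycine and GABA transmission had the lowest median. Of 26 members of the glycine and GABA list 21 were higher in the SOC and 0 in the cochlea (median -4.07), and 4 more had counts in the SOC only. The latter were the glycine transporter of glycinergic terminals, Slc6a5, at 675, 709 and 474 CPM (at least 904-fold above the cochlear floor), the adult glycine receptor subunit Glra1 at 80.7, 94.5 and 99.0 CPM (at least 133-fold), the vesicular transporter Slc32a1 at 60.5, 68.0 and 100.3 CPM (at least 111-fold) and Gabrg1 at 122, 116 and 69.0 CPM (at least 149-fold). Gad1, which makes GABA, was at 4.42, 4.07 and 4.54 CPM in the cochlea and 226, 231 and 165 CPM in the SOC (log2 -5.58 ± 0.20, adjusted p 2.77e-13). In these genes the SOC libraries lay far above the cochlear ones. Glrb, the beta subunit of the glycine receptor, was at 168, 185 and 165 CPM in the cochlea and 1011, 909.8 and 553 CPM in the SOC (log2 -2.25 ± 0.26, adjusted p 3.56e-07), a smaller difference than for most of the list. The organs were closer, though not overlapping, in another subunit. Glra3, another glycine receptor subunit, went against the list, with 51.3, 50.6 and 55.7 CPM in the cochlea and 40.4, 43.8 and 24.7 CPM in the SOC (0.53, 95% interval -0.15 to 1.22, not called). Nlgn2, an adhesion protein of inhibitory synapses, was at 129 against 53.0 CPM (1.28) and was called higher in the cochlea under 8 of 19 alternative settings.

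The genes of glutamate transmission were higher in the SOC or not called, apart from Slc17a7 and Slc17a8. Of 33 members 17 were higher in the SOC and 2 in the cochlea, Slc17a7 and Slc17a8. Slc17a7, VGLUT1, was at 259, 316 and 309 CPM in the cochlea and 75.9, 71.5 and 64.2 CPM in the SOC (log2 2.06 ± 0.19, adjusted p 2.13e-08). Slc17a6, VGLUT2, the other way, was at 71.5, 94.7 and 62.7 CPM in the cochlea and 469, 490.3 and 292 CPM in the SOC (log2 -2.45 ± 0.22, adjusted p 2.2e-08). The NMDA receptor subunits Grin2a and Grin2b were at 1.37 against 127 CPM (-6.55) and 1.44 against 131 CPM (-6.51). AMPA receptor subunits were present in both organs. Among them Gria1 was at 2.02 against 93.7 CPM (-5.53), Gria2 at 62.5 against 326 CPM (-2.38) and Gria4, the fast subunit of auditory synapses, at 52.4 against 356 CPM (-2.76), all higher in the SOC. Gria3 was not called, at 114, 109 and 99.4 CPM in the cochlea and 173, 188 and 113 CPM in the SOC (-0.56).

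Of 32 release genes 16 were higher in the SOC and 2, Otof and Unc13b, in the cochlea. The calcium sensors of release differed, with Syt1 at 19.01, 12.1 and 11.98 CPM in the cochlea and 355, 393 and 249 CPM in the SOC (log2 -4.53 ± 0.22, adjusted p 9.12e-12). Syt2, the sensor of fast synapses, was at 268, 321 and 313 CPM in the cochlea and 591, 659 and 703 CPM in the SOC (-1.11, not called). Unc13b, a priming factor, was at 165, 167 and 143 CPM in the cochlea and 22.7, 23.0 and 29.2 CPM in the SOC (log2 2.66 ± 0.14, adjusted p 1.73e-11). Its paralogue lay the other way. Unc13c was at 17.7, 12.9 and 11.5 CPM in the cochlea and 161, 179 and 119 CPM in the SOC (log2 -3.45 ± 0.22, adjusted p 3.24e-10). Cplx1 and Vamp1, which fast synapses use, were at 523 against 351 CPM (0.58) and 571 against 665 CPM (-0.22) and were not called. None of the 16 synaptotagmins was higher in the cochlea, and 9 were higher in the SOC.

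The list of fast firing and the calyx of Held holds channels, calcium buffers and signalling genes. Of its 27 members 16 were not called, 9 were higher in the SOC and 2 in the cochlea (median -0.60). Kcna1, a low-threshold potassium channel that keeps firing to single spikes, was at 564, 555 and 489 CPM in the cochlea and 420.2, 446 and 330.4 CPM in the SOC (0.43, 95% interval -0.09 to 0.94). Kcna2 was at 602, 638 and 594 CPM in the cochlea and 860.4, 968 and 603 CPM in the SOC (-0.41, -0.85 to 0.03). Of the Kv3 channels, which repolarize fast, Kcnc1 was at 158, 195 and 247 CPM in the cochlea and 84.9, 92.0 and 122 CPM in the SOC (1.01), while Kcnc2 was at 2.93, 4.13 and 3.94 CPM in the cochlea and 77.6, 84.7 and 56.8 CPM in the SOC (log2 -4.31 ± 0.20, adjusted p 4.9e-12). No library overlapped in Kcnc2 or in Scn1a. Scn1a, a sodium channel, was at 141, 136 and 103 CPM in the cochlea and 1344, 1353 and 782 CPM in the SOC (log2 -3.20 ± 0.25, adjusted p 4.18e-09), and Scn8a, the channel of nodes of Ranvier, at 231 against 404 CPM (-0.81, not called). In the whole potassium channel family 38 of 77 members were higher in the SOC and 8 in the cochlea. Of 12 sodium channel members 4 were higher in the SOC and 1 in the cochlea, and of 22 calcium channel members 6 (10 with GC content and length adjusted for) and 1.

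Perineuronal nets are sheaths of matrix around fast-firing neurons. Of 11 members 7 were higher in the SOC, among them Bcan at 77.6, 96.4 and 104 CPM in the cochlea and 280.3, 304 and 621 CPM in the SOC (log2 -2.12 ± 0.35, adjusted p 2.44e-05). Ncan was at 12.7, 15.1 and 12.7 CPM in the cochlea and 189, 227 and 371 CPM in the SOC (log2 -4.28 ± 0.37, adjusted p 1.33e-08). Tnr was at 12.4, 13.7 and 15.1 CPM in the cochlea and 264, 315 and 319.8 CPM in the SOC (log2 -4.45 ± 0.27, adjusted p 1.77e-10). The organs lay apart in all 3 genes. Acan, aggrecan, which is also the proteoglycan of cartilage, was higher in the cochlea, at 252, 263 and 382 CPM in the cochlea and 34.7, 45.5 and 39.9 CPM in the SOC (log2 2.90 ± 0.38, adjusted p 2e-06), and Tnc at 76.4 against 19.5 CPM (1.96).

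Genes of the efferent loop were measured at both its ends. The acetylcholine synthesis enzyme Chat, the vesicular transporter Slc18a3 and the receptor Chrm2 had no counts in the cochlea and were at 6.72, 8.78 and 15.05 CPM, 2.98, 3.36 and 10.5 CPM and 151, 167 and 93.3 CPM in the SOC. Slc5a7, the choline transporter, was at 0.892, 0.472 and 0.714 CPM in the cochlea and 36.8, 36.5 and 46.0 CPM in the SOC (log2 -5.85 ± 0.36, adjusted p 2.03e-10). Calca, the CGRP gene of olivocochlear neurons, was at 0.214, 0.207 and 0.338 CPM in the cochlea and 26.1, 24.5 and 24.1 CPM in the SOC (log2 -6.61 ± 0.40, adjusted p 1.48e-10). Of 14 members of this list 8 were higher in the SOC. The 3 higher in the cochlea were transcription factors that cochlear cells also use, Gata2, Gata3 and Isl1, the last at 82.9, 90.0 and 78.6 CPM in the cochlea and 1.74, 2.06 and 2.86 CPM in the SOC (log2 5.22 ± 0.25, adjusted p 6.14e-12).

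Thyroid hormone and retinoids are needed for hearing to mature. Of 22 members 10 were higher in the cochlea and 4 in the SOC, the latter 2 without cochlea replicate 2. Aldh1a3, a retinoic acid enzyme, was at 172, 205 and 170.2 CPM in the cochlea and 0.298, 0.502 and 0 CPM in the SOC (log2 9.51 ± 0.42, adjusted p 3.13e-12). Rarg, a retinoic acid receptor, was at 53.7, 59.4 and 76.7 CPM in the cochlea and 2.34, 3.21 and 3.27 CPM in the SOC (log2 4.42 ± 0.24, adjusted p 4.18e-11). Thrb, a thyroid hormone receptor, was at 56.6, 52.5 and 58.1 CPM in the cochlea and 18.0, 23.0 and 17.9 CPM in the SOC (log2 1.51 ± 0.20, adjusted p 2e-06). These genes all lay apart by organ. Aldh1a1 was higher in the SOC, at 122, 101 and 88.7 CPM in the cochlea and 481, 417 and 301 CPM in the SOC (log2 -1.94 ± 0.28, adjusted p 6.52e-06).

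Markers of tissue around the organs moved with the comparison, so that the cochlear libraries, labelled as sensory epithelium, also held transcripts of nerve, bone, cartilage and blood cells. Of 9 bone members 8 were higher in the cochlea, and the 14 listed genes summed to 1778, 1110.0 and 1487 CPM there and 376, 297 and 219 CPM in the SOC. Most of the sum was Spp1, which other cells also express, at 976 against 267 CPM. The bone cell gene Ibsp was at 209.8, 69.6 and 136 CPM in the cochlea and 0.149, 0.201 and 0 CPM in the SOC. Dmp1 of osteocytes was at 161, 92.8 and 107 CPM in the cochlea and 3.13, 3.26 and 2.18 CPM in the SOC, and Sost, Mepe, Bglap, Bglap2 and Ifitm5 were at 0 in the SOC. Cartilage genes were higher in the cochlea for 8 of 10 members and in the SOC for 1, with sums of 3840.4, 3276 and 3619.8 CPM in the cochlea and 301, 307 and 189 CPM in the SOC, Col2a1 included. Matn3 was at 0 in the cochlea. The 12 neutrophil genes summed to 54.0, 71.6 and 492 CPM in the cochlea and 5.07, 4.52 and 3.72 CPM in the SOC, with Camp, Mpo, Elane, Retnlg, Mmp8 and Cxcr2 at 0 in the SOC. The 11 B-lymphoid genes summed to 317, 321 and 366 CPM in the cochlea and 34.3, 31.2 and 25.3 CPM in the SOC, with 8 of them at 0 in the SOC. Ebf1, which fibroblasts also express, made up most of the latter. It was itself higher in the cochlea (log2 3.30), so that the cochlear B-lymphoid sums hold it too. Cochlea replicate 3 was thus highest in neutrophil genes and, with 166, 281 and 1154 CPM, in the erythroid list, against 329, 357 and 399.7 CPM in the SOC. T cell genes in the table summed to 30.9, 32.0 and 32.5 CPM in the cochlea and 2.14, 2.76 and 1.96 CPM in the SOC. Fibroblast genes were higher in the cochlea for 10 of 14 members and in the SOC for 1. Endothelial genes were split evenly, with 2 higher in each organ of 14 members. Of 13 cerebellar and choroid plexus members 7 were higher in the SOC (4 in a fit of the 6 libraries alone) and 3 in the cochlea (5 without SOC replicate 3). The genes of the choroid plexus were among the latter, with Clic6 (5.60) and Folr1 (2.84), or not called, with Ttr (0.31) and Kl (1.12). The list summed to 399, 285 and 512 CPM in the SOC and 204, 184 and 223 CPM in the cochlea, and skeletal muscle genes summed to at most 22.0 CPM in any library. The part of these tissues in the organ differences was not tested.

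**Figure D4:**
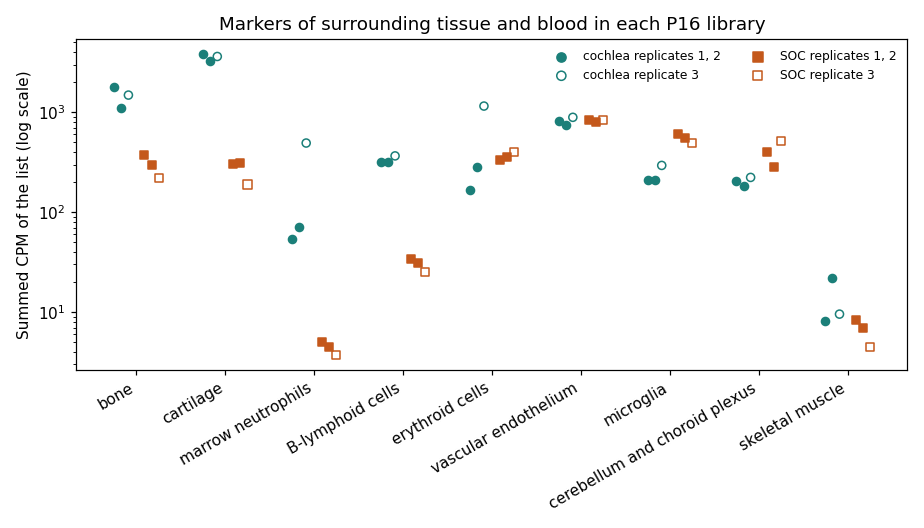
Summed CPM of 9 marker lists in each P16 library (y axis, log scale), with replicate 3 of each organ drawn open. Bone, cartilage, neutrophil and B-lymphoid sums are higher in all 3 cochlear libraries, and cochlea replicate 3 has the highest neutrophil (492 CPM) and erythroid (1154 CPM) sums.

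The same organ difference was measured at birth (P0) with 3 cochlear and 4 SOC libraries. Differences between the organs in substrain, kit or laboratory that were the same at both ages drop out of the change between them. The joining of filtered tables was not the same at both ages. All 9 cochlear libraries shared a table, but SOC replicates 1 to 3 of P0 were in another table than the SOC libraries of P16. In that table of earlier SOC libraries 630 members were at 0 throughout. Of the 3587 members higher in the cochlea at P16, 2524 were also called higher at P0, by adjusted p and fold change, and of the 2813 higher in the SOC 1878 were. The opposite call at P0 was made for 47 and 55. A change of the difference from P0 to P16, at an adjusted p under 0.01 and over 2.5-fold, was called in favour of the cochlea for 1458 members (9.08%) and in favour of the SOC for 1214 (7.56%). With zeros of left-out genes at 20 counts, 1495 and 1397 members were called. Of the members higher in the cochlea at P16, 661 had changed in its favour, and of those higher in the SOC 534 had. In the other direction, 149 members higher in the cochlea had changed in favour of the SOC and 226 higher in the SOC in favour of the cochlea.

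Glial genes changed with age in opposite directions. A change in favour of the cochlea was called for 13 of 15 Schwann cell members, and in favour of the SOC for 14 of 19 oligodendrocyte members and 9 of 15 shared myelin members. Prx was at 28.6 ± 5.40 against 9.63 ± 2.39 CPM at P0 (change 7.67 ± 0.46, adjusted p 1.27e-09). Mbp was at 63.9 ± 11.4 against 161 ± 56.5 CPM at P0 (change -2.27 ± 0.35, adjusted p 6.59e-05). The difference widened in Prx in favour of the cochlea and in Mbp in favour of the SOC. The organs lay closer in both genes at birth than at P16.

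Other lists were called at birth already, when by adjusted p and fold change alone 22.8% of all members were higher in the cochlea and 18.5% in the SOC. Of the 15 tectorial and otic matrix members 15 were called higher in the cochlea at P0, and of 14 otic factors 13. Coch grew further apart, from 223 ± 56.5 against 32.1 ± 5.08 CPM at P0 (change 6.88 ± 0.32, adjusted p 8.8e-11), and Tecta came closer, from 3702 ± 575 against 0.648 ± 0.136 CPM (change -8.81 ± 0.93, adjusted p 1.18e-06). In the glycine and GABA list 23 of 26 members were higher in the SOC at P0. Slc12a5 was at 7.56 ± 1.71 against 362 ± 121 CPM at P0 (change -0.70 ± 0.44, adjusted p 0.3).

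Among pan-neuronal and release genes more changed in favour of the cochlea than of the SOC. A change in its favour was called for 10 of 20 pan-neuronal members and 14 of 32 release members, against 1 and 3 in favour of the SOC. At P0, 18 pan-neuronal members were higher in the SOC, against 10 at P16. Nefh, not called at P16, was at 20.8 ± 6.18 against 145 ± 62.5 CPM at P0 (change 2.95 ± 0.43, adjusted p 4.68e-05). Kcna1 was at 10.4 ± 2.58 against 12.002 ± 3.89 CPM at P0 (change 0.63 ± 0.34, adjusted p 0.207), and Kcnc1 at 13.6 ± 3.79 against 41.2 ± 15.4 CPM (change 2.60 ± 0.49, adjusted p 0.000568). In the hair cell synapse list, Calb2 was at 29.1 ± 2.09 against 72.3 ± 10.1 CPM at P0 (change 4.11 ± 0.26, adjusted p 2.16e-09) and Otof at 86.2 ± 14.4 against 13.1 ± 4.12 CPM (change 3.34 ± 0.37, adjusted p 2.11e-06). Glra3, for which the organs were close at P16, was at 0.0134 ± 0.0232 against 36.7 ± 3.08 CPM at P0. The cochlear level of this glycine receptor subunit was thus near 0 at birth, and the SOC level was in its P16 range.

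**Figure D5:**
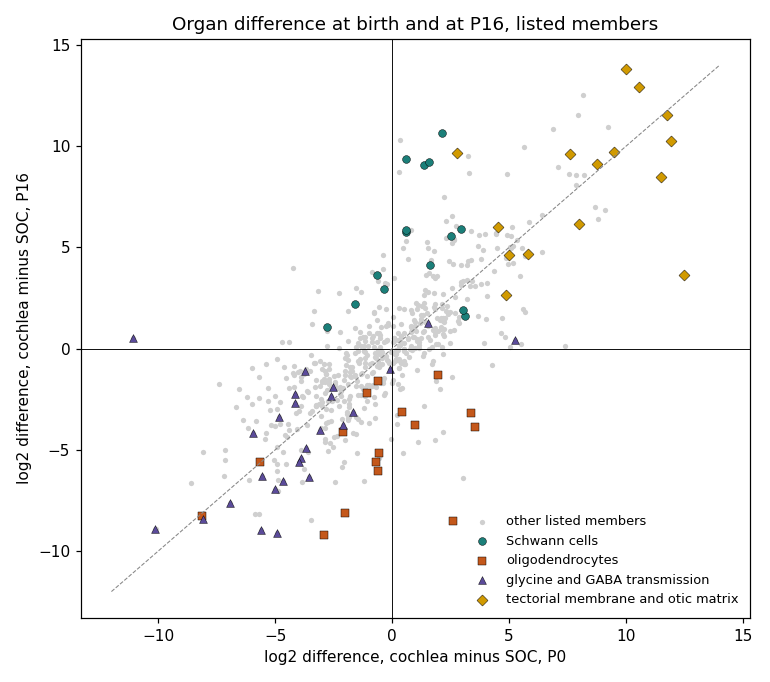
Log2 difference between cochlea and SOC at P0 (x axis) and at P16 (y axis) for 618 listed members with counts in both organs at P0. The dashed line marks an equal difference at both ages, with 13 of 15 Schwann cell members called as changed in favour of the cochlea and 14 of 19 oligodendrocyte members in favour of the SOC.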

How the data were processed

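The deposited table held raw counts per gene, which the authors had made from the libraries of the cochlea and the SOC. The submitters' processing notes name STAR 2.5.3a, HTSeq and DESeq2 and the build mm10. Whether counting used strand is not given in the sources used here. The table joined 4 parts that had been filtered separately, so that a 0 can stand for a gene left out of a part.

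All 22734 genes of all 20 libraries were fitted with edgeR 4.0.16 in R 4.3.3 (TMM scaling, 6 groups of organ and age, quasi-likelihood test, Benjamini-Hochberg adjustment over all genes), and the organs were compared at P16. The change from P0 was the interaction of organ and age. A difference was called at an adjusted p under 0.01, over 2.5-fold and with no overlap of the 3 libraries of each organ. DESeq2 1.42.0 was among the alternatives. No 2 libraries of P16 agreed within sampling noise. The intervals of log2 differences rest on the standard error of the fit, which includes the spread between pools. The counting intervals of ratios and the floors cover counting error only. A 0 was taken to allow 3 counts, or 20 where the gene had been left out.

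The genes named are the 10 with the largest difference per direction at a mean of at least 50 CPM, the 5 with the highest level per kb of exon among those called in each direction and among those whose 95% interval lay within 1.5-fold, and genes of the 44 lists. Some of the genes that this rule names are not reported here. Glra3 at P0 was singled out after its values were seen. Members and lists were chosen with earlier results of these data known. Gene positions came from GENCODE M21 (16021 of the 16065 members were found), promoters from RefSeq.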

Additional observations from a re-analysis of the deposited data

Results flagged for a closer look

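The difference between the organs at P16 differed from that at P0, by the interaction term of the edgeR model at an adjusted p under 0.01 and over 2.5-fold, for the 11 genes given here, which are among the members with the largest differences. In this fit all 11 lay further apart at P16 in the direction of their P16 call. The genes were picked by their P16 difference, which is itself part of the change. The shared direction was thus largely set by the choice and is no result of its own. Levels at P0 are means ± SD over 3 cochlear and 4 SOC libraries, the cochlea first.

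Of the genes higher in the cochlea, Epyc was at 376 ± 76.9 against 0.359 ± 0.337 CPM at P0 (change of the log2 difference 3.79), Cldn9 at 52.4 ± 5.12 against 0.183 ± 0.116 CPM (4.36) and Ush1c at 95.5 ± 8.52 against 0.389 ± 0.178 CPM (3.60). Prom2, a membrane protein of epithelia, was at 16.2 ± 2.13 against 0.138 ± 0.0993 CPM (3.99) and Slc26a4 at 24.0 ± 1.89 against 0.196 ± 0.116 CPM (3.97). The organs were thus far apart in these genes at birth too. The SOC held few reads of them at either age, so that the sizes of these changes depend on the prior count of the model and are no bounds. These genes were also left out of the table of SOC replicate 3. With such zeros set to 20 counts, their P16 log2 differences were 11.28 (Epyc), 8.47 (Cldn9), 8.25 (Ush1c), 9.05 (Prom2) and 8.31 (Slc26a4). At P0 the fitted log2 differences were 10.01, 8.15, 7.94, 6.85 and 6.86 in the same order, so that much of each change depends on these zeros.

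Of the genes higher in the SOC, Opalin had no counts in the SOC at P0 and 0.880 CPM in the cochlea. Its fitted change of -19.51 rests on zeros and gives no size. Ermn was at 0.255 ± 0.0831 against 1.93 ± 1.25 CPM at P0 (-6.31), Zcchc12 at 5.09 ± 0.334 against 317 ± 40.8 CPM (-3.48) and Tph2 at 0.261 ± 0.149 against 36.4 ± 5.43 CPM (-2.32). The receptor subunit Gabra3 was at 2.44 ± 0.290 against 73.5 ± 6.86 CPM (-4.20) and Gad2 at 2.12 ± 0.345 against 103 ± 22.0 CPM (-3.35), both higher in the SOC at birth already. With 3 libraries per organ, a single far library at P16 was looked for only by leaving out libraries, as given below.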

How the results depend on the processing

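The counts of calls were recomputed under 19 alternatives, and no called member turned its direction under any of them. Tested directly against a 2.5-fold difference (glmTreat), 2491 members were higher in the cochlea and 1718 in the SOC. A change from P0 was called for 459 in favour of the cochlea and 423 in favour of the SOC, since that test asks for more than an estimate over the limit. In the other settings these 4 counts stayed within 1.5 times the values reported. They were 3777 and 2546 with DESeq2, 3680 and 2415 in a fit of the 6 libraries of P16 alone, 3451 and 2612 with GC content and length adjusted for (85.2% of the calls were kept), 3366 and 3052 with zeros of left-out genes at 20 counts, and 2657 and 2788 among genes with counts in all 6 libraries. Leaving out 1 library of P16 at a time gave 3480 to 3684 higher in the cochlea, 2559 to 3064 higher in the SOC, and 1319 to 1481 and 1093 to 1272 changes. The setting without replicate 3 of either organ was added after seeing the data. Of 12037 values of 637 named or listed genes, 230 were no longer called and 148 became called. No called value changed direction. Some small differences that were not called changed sign, such as Itm2b, at -0.0095 in the main fit and 0.096 with DESeq2. Of 1672 counts over the lists, 91 moved by more than 1.5 times.

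The organs came from different animals, and the replicate numbers were not used as pairs. Over 15257 genes the deviations of same-numbered libraries from their group means correlated at 0.328, 0.0908 and 0.308, and SOC replicate 2 correlated best with cochlea replicate 1 (0.234). The deviations also followed GC content. Their rank correlation with it was -0.564, -0.0696 and 0.442 in cochlea replicates 1 to 3. In the SOC replicates it was -0.609, -0.512 and 0.687. With a replicate block 3735 members were higher in the cochlea and 2830 in the SOC. A change from P0 was called for 1610 and 1553.

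Organ cannot be told apart from substrain, laboratory, dissection and kits. Depth limits the genes near 0 in an organ. In SOC replicate 3 the separate filter also does, since there a 0 of a left-out gene stands for any count up to 20.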
